A study of Mus musculus with 12 samples.

Results

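Small nucleolar RNAs are short RNAs of the nucleolus, and their mouse genes carry the symbols Snord (C/D box class) and Snora (H/ACA box class) followed by a number. The members described here are all array features that name exactly 1 gene with such a symbol. There were 66 of them for 62 genes, of 31258 features that name exactly 1 gene for 30702 genes. The Snora class held 19 features for 18 genes and the Snord class 47 features for 44 genes. A further 42 snoRNA features also name a gene that is no snoRNA and were left out.

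The arrays measured RNA of erythroblasts sorted from the spleens of male mice. All mice, on both diets, had received phenylhydrazine, which lyses circulating red cells and so drives new red cell formation in the spleen, and cells were taken on day 3. The diet had been deficient or adequate in selenium for 3 months. The groups were basophilic erythroblasts on the deficient diet, basophilic erythroblasts on the adequate diet, proerythroblasts on the deficient diet and proerythroblasts on the adequate diet, with 3 arrays each (12 in all). The proerythroblast is the earlier of the 2 stages. The labels give no strain or age and do not say whether replicates came from separate mice, so p-values measure the spread between these arrays, which may be technical.

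C/D box snoRNAs guide 2′-O-methylation of ribosomal RNA by a particle built on fibrillarin, Nop56, Nop58 and Snu13. H/ACA box snoRNAs guide pseudouridylation by a particle built on dyskerin, Nop10, Nhp2 and Gar1. In mammals most are not transcribed alone: they are cut out of introns of host genes, many of which encode ribosomal proteins or nucleolar proteins, and the spliced introns are trimmed by exonucleases. A few, such as U8 (Snord118), U14 (Snord14) and U17 (Snora73), act in cleavage of the precursor of ribosomal RNA instead of, or besides, guiding a modification. Red cell precursors make ribosomes at a high rate early and stop doing so as they mature.

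Since the promoter of the host gene drives an intronic snoRNA, start regions of hosts of members described below are shown, from RefSeq (GRCm38.p6, 50 bases before to 50 bases after the annotated start, on the strand of the gene). They are the hosts of Snord35a (Rpl13a), Snord16a (Rpl4), Snord72 (Rpl37), Snora75 and Snord82 (Ncl, which encodes nucleolin) and Snord92 (Wdr43, a nucleolar protein). Capitals mark the first run of at least 8 C or T that begins with C within the 50 bases after the start. Ribosomal protein genes are known for a tract of C and T at the very start of the mRNA, which ties translation to growth signals. The runs marked here begin at base 3 after the annotated start in Rpl13a, 27 in Rpl4, 29 in Rpl37 and 37 in Ncl. Whether they are that tract was not tested.
Rpl13a, chr7:45128696-45128795, minus strand: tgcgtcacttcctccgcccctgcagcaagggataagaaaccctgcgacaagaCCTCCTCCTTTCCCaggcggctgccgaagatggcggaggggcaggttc
Rpl4, chr9:64173337-64173436, plus strand: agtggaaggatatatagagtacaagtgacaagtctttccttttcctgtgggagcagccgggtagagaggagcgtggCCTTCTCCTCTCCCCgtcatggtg
Rpl37, chr15:5116563-5116662, plus strand: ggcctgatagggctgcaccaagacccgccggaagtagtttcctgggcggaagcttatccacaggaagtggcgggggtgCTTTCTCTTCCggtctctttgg
Ncl, chr1:86359406-86359505, minus strand: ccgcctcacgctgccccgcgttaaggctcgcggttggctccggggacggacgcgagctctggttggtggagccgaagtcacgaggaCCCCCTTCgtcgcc
Wdr43, chr17:71616165-71616264, plus strand: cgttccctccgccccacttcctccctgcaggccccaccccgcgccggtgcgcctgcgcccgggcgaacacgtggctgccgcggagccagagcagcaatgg
A run of at least 8 C or T as defined above is in the first 4 and not in this window of Wdr43. It was found in 13 of 46 host genes with a start region in the table (28.3%), in 5 of the 10 that encode ribosomal proteins (50%), and in 4173 of all 27025 genes in that table (15.4%). The search was on the strand of the gene only and its limits were set after the sequences had been seen, so a match is a description of these letters.

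For deficient basophilic replicate 3 the free-text description says proerythroblasts while the title and the cell type say basophilic, and it was kept as basophilic. Over the genes tested its Pearson r was 0.991 with replicate 1 of its own group and 0.945 to 0.946 with the deficient proerythroblast arrays. Replicate 2 of both basophilic groups stood apart. Its background features had a median of 4.70 on the deficient and 4.19 on the adequate diet, against 3.63 to 3.80 in the other basophilic arrays and 3.31 to 3.53 in proerythroblasts. Erythroid markers had a median over the list of 10.1 to 11.5 on every array, with 11 of 11 measured markers above 5.30 on all arrays of each group. Progenitor markers such as Kit and Myb had list medians of 6.01 to 6.31 in deficient and 6.17 to 6.45 in adequate basophilic erythroblasts, and of 6.88 to 7.12 in deficient and 8.91 to 9.25 in adequate proerythroblasts. Neutrophil markers had list medians of 6.66 to 6.71 and 6.32 to 6.52 in the deficient and adequate basophilic arrays, and of 7.87 to 8.76 and 6.92 to 9.50 in the deficient and adequate proerythroblast arrays.

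Most snoRNA features lay above the middle of the array's range. The median of all log2 values in the table was 5.30, and 16 of 19 Snora features (84.2%) and 40 of 47 Snord features (85.1%) exceeded it in 3 or more arrays. Of all features naming 1 gene, 65.4% did. In all 12 arrays it was 14 of 19 Snora and 18 of 47 Snord features, against 51.8% of all such features. By this stricter count the Snora share was above that of all features and the Snord share below it. In no array it was 2 Snora and 4 Snord features. By group, Snora features above 5.30 in all 3 arrays numbered 14 in deficient basophilic, 14 in adequate basophilic, 15 in deficient proerythroblast and 15 in adequate proerythroblast samples. The Snord features numbered 20, 23, 34 and 35 in the same order of groups, fewer in basophilic erythroblasts. The share of all features was not counted by group. The median of all values was 5.30 to 5.55 on the basophilic and 5.13 to 5.28 on the proerythroblast arrays, so the fixed limit fell differently on them. Just inside the limit was Snora20, above 5.30 in 3 arrays, and just outside were Snora16a and Snord123, each in 2.

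A gene was tested when its best feature exceeded 5.30 in 3 or more arrays, which left 15 Snora and 38 Snord genes among 20129 genes. The 3 Snora and 6 Snord genes not tested were Snora16a, Snora19, Snora2b, Snord110, Snord111, Snord123, Snord64, Snord85 and Snord91a. Snord64 lies in the imprinted Snhg14 locus of brain and stayed between 2.36 and 3.27 on all arrays. It was the only 1 of 9 listed orphan snoRNAs of imprinted loci with a feature of its own, and of 8 listed snoRNAs of Taf1d none had one. Of the tested members, Snora20, Snora75, Snord82, Snord87 and Snord92 exceeded 5.30 in proerythroblast arrays alone and so entered the test through the stage in which they were high. No tested member exceeded it in basophilic arrays alone. In 3 or more arrays of each stage it was 13 of 15 Snora and 28 of 38 Snord genes. The remaining Snord genes, such as Snord43 and Snord72, needed proerythroblast arrays to pass the filter. The class medians and the counts of lower calls below include them.

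**Figure D1:**
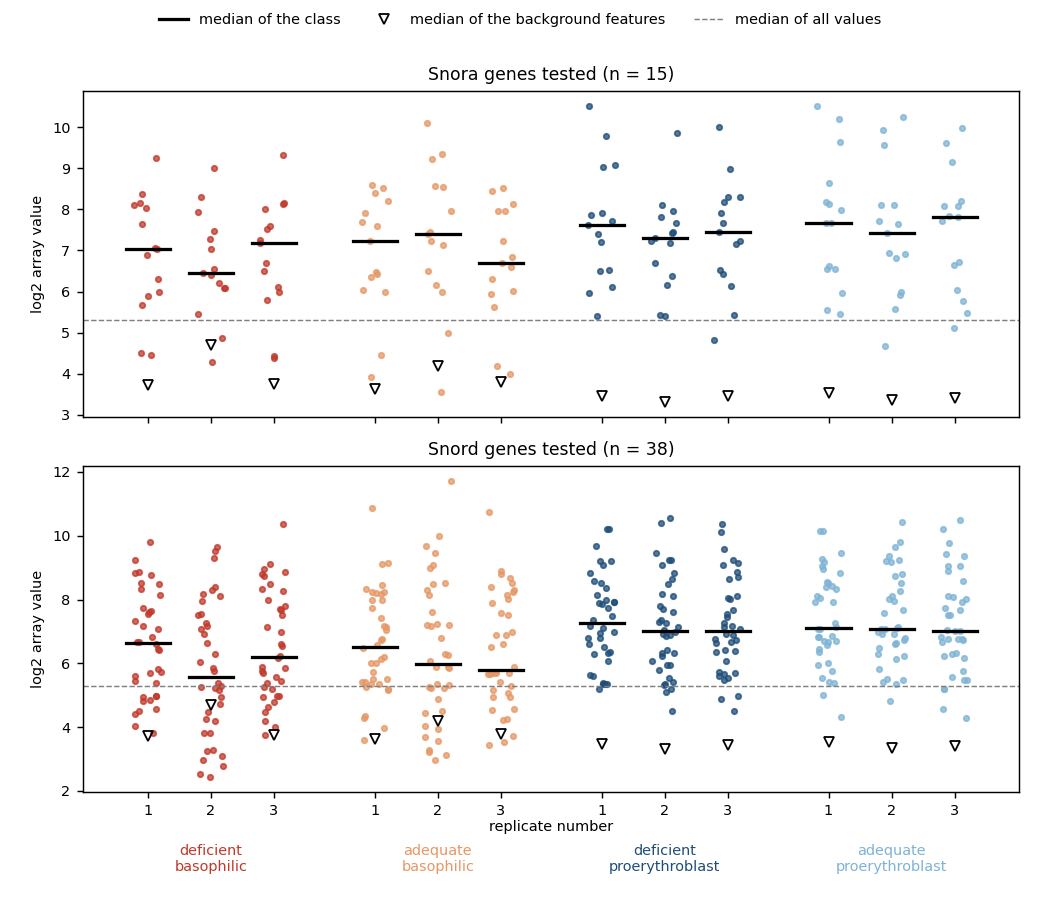
Log2 values of the 15 tested Snora genes (upper panel) and the 38 tested Snord genes (lower panel) on each of the 12 arrays; points are genes, bars the median of the class on that array, triangles the median of the background features, and the dashed line the median of all values (5.30). The Snord medians lie between 5.57 and 6.64 in basophilic arrays and between 7.0 and 7.28 in proerythroblast arrays.

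Between the stages, most snoRNA genes that changed were lower in basophilic erythroblasts. The median of the tested Snord genes was 6.64, 5.57 and 6.21 on the deficient and 6.52, 5.98 and 5.81 on the adequate basophilic arrays, against 7.28, 7.03 and 7.0 on the deficient and 7.12, 7.09 and 7.0 on the adequate proerythroblast arrays. Every basophilic array was below every proerythroblast array. The median of the tested Snora genes was 7.03, 6.45 and 7.18 on the deficient and 7.22, 7.39 and 6.70 on the adequate basophilic arrays, against 7.62, 7.31 and 7.45 on the deficient and 7.68, 7.42 and 7.82 on the adequate proerythroblast arrays. On each diet the groups did not overlap. In sorted bulk cells, fewer cells of a type and less of the RNA per cell cannot be told apart, and an array feature within an intron reads mature snoRNA and unspliced host RNA alike.

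On the deficient diet, 6 of 15 Snora genes passed the threshold (limma, adjusted p under 0.05, n = 3 arrays per group), 5 lower and 1 higher in basophilic erythroblasts. Of the 38 Snord genes 19 passed, 18 lower and 1 higher. Among all 20129 genes tested 56% passed, 24.9% lower and 31.1% higher. In either direction 40% of Snora and 50% of Snord genes passed, below the share of all genes, and the shares called lower, 33.3% and 47.4%, were above it. For the adequate diet 7 Snora genes passed (6 lower, 1 higher) and 18 Snord genes (17 lower, 1 higher), where 54.2% of all genes did (25.6% lower, 28.7% higher). The median log2 fold change, basophilic over proerythroblast, was -0.82 for Snora, -0.88 for Snord and 0.08 for all genes on the deficient diet. It was -0.37, -0.76 and 0.12 on the adequate diet. Median centring of each array moved the median of all genes to -0.15 and -0.12 on the deficient and adequate diets, that of Snora to -1.05 and -0.61 and that of Snord to -1.11 and -0.995. With that centring 31.3% of all genes were called lower and 14.2% higher on the deficient diet and 30.9% and 9.52% on the adequate diet. Of Snora genes 8 were then lower and 0 higher on the deficient diet and 6 and 1 on the adequate diet, and of Snord genes 17 and 0, and 18 and 0. The classes were not tested as lists, and the difference between them was not tested.

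All 3 basophilic arrays lay below all 3 proerythroblast arrays for 6 Snora and 20 Snord genes on the deficient diet (29.6% of all genes) and for 7 Snora and 20 Snord genes on the adequate diet (32.6%). The reverse held for 1 Snora and 4 Snord genes on each diet, against 36.9% of all genes on the deficient and 41.4% on the adequate diet. The lower calls were largely of the same genes on both diets: 4 Snora genes (of 5 on the deficient and 6 on the adequate diet) and 15 Snord genes (of 18 and 17). Without the 5 members that passed the filter through proerythroblast arrays alone it was 2 Snora and 12 Snord genes. These still include Snord43, Snord49a, Snord58b, Snord72 and Snord73a, which exceeded 5.30 in fewer than 3 basophilic arrays. They too needed proerythroblast arrays to pass the filter, so their direction was fixed in part by it. Without deficient basophilic replicate 3, whose labels conflict, 7 Snora and 20 Snord genes passed on the deficient diet, beside 61.7% of all genes, and 7 and 19 on the adequate diet, beside 56.6%. Without replicate 2 of both basophilic groups 7 and 18 passed on the deficient diet, beside 58.7% of all genes, and 9 and 25 on the adequate diet, beside 68.2%. The count of Snord genes on the deficient diet was 11 without deficient proerythroblast replicate 1 and 12 without deficient proerythroblast replicate 3, where 34% and 24.6% of all genes passed. On the adequate diet it was 10 without adequate basophilic replicate 2, 10 without adequate proerythroblast replicate 1 and 9 without adequate proerythroblast replicate 2, where 27.9%, 30.8% and 30.2% of all genes passed. The background, replicate 2 and the progenitor and neutrophil markers moved with the stages as given above, and their part in these counts was not tested.

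**Figure D2:**
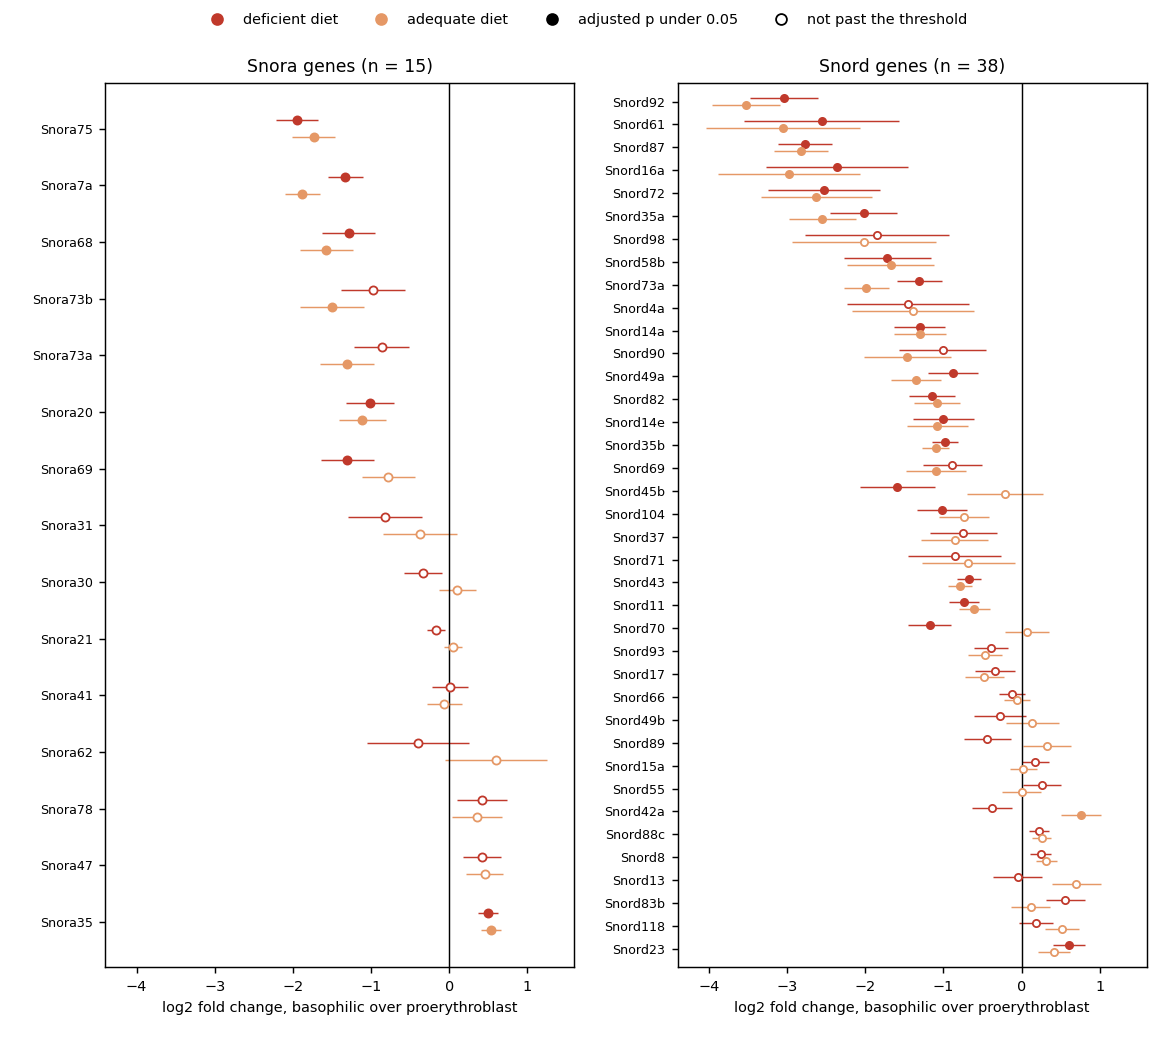
Log2 fold change (basophilic over proerythroblast) of every tested snoRNA gene on the deficient and the adequate diet, with its standard error; filled points passed an adjusted p of 0.05. Snord92 has the lowest values on both diets (-3.04 and -3.52), and Snora35 is the one Snora gene called higher.

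Among the H/ACA genes, Snora75 lies in an intron of the nucleolin gene Ncl. It read 4.5, 4.88 and 4.38 on the deficient basophilic arrays, against 6.49, 6.69 and 6.43 on the deficient proerythroblast arrays. On the adequate diet it read 3.92, 4.98 and 4.19 in basophilic erythroblasts and 6.56, 5.98 and 5.76 in proerythroblasts. The stages were apart on both diets, with basophilic values near the background of those arrays. In log2 units Snora75 fell by 1.95 (SE 0.27, adjusted p = 0.000689) on the deficient and by 1.74 (SE 0.27, adjusted p = 0.000457) on the adequate diet.

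Snora7a is within the ribosomal protein gene Rpl32. It read 5.89, 6.41 and 6.10 in deficient basophilic erythroblasts and 7.72, 7.44 and 7.23 in deficient proerythroblasts. The adequate diet gave 6.43, 6.49 and 5.62 in basophilic erythroblasts and 7.99, 8.10 and 8.09 in proerythroblasts. Each basophilic array was below each proerythroblast array, and Snora7a fell by 1.33 (SE 0.23, adjusted p = 0.00207) on the deficient and by 1.88 (SE 0.23, adjusted p = 7.29e-05) on the adequate diet. Snora68 fell by 1.29 (SE 0.34, adjusted p = 0.0134) and by 1.57 (SE 0.34, adjusted p = 0.0038) on the deficient and adequate diets. Snora20, within the chaperonin gene Tcp1, fell by 1.01 (adjusted p = 0.019) and by 1.11 (adjusted p = 0.0128), and its basophilic values, 3.56 to 4.45, were close to background. The call of Snora20 ended with array weights on both diets, and that of Snora68 on the deficient diet with the arrays of that comparison only.

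Snora69, within Rpl39, fell on the deficient diet (-1.31, SE 0.34, adjusted p = 0.0126) and had -0.78 (adjusted p = 0.0672) on the adequate diet. Snora73a and Snora73b, the U17 copies of Snhg3, fell on the adequate diet, with -1.31 (SE 0.35, adjusted p = 0.0113) and -1.5 (SE 0.41, adjusted p = 0.0131). On the deficient diet they had -0.87 (adjusted p = 0.0505) and -0.98 (adjusted p = 0.0589). The call of Snora73a ended with quantile normalization (adjusted p = 0.0646). These copies are near-identical in sequence and their features may share signal. The diet by stage interaction of none of these 3 genes passed, so calls on 1 diet do not show that the diets differ.

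Snora35, which lies within Htr2c, a serotonin receptor gene of brain, went the other way. It read 5.67, 6.09 and 5.98 in deficient basophilic erythroblasts and 5.40, 5.41 and 5.44 in deficient proerythroblasts. On the other diet the values were 6.0, 6.17 and 5.94 in adequate basophilic erythroblasts against 5.45, 5.57 and 5.48 in adequate proerythroblasts. The groups did not overlap on either diet, and all values were a little above the median of the table. It rose by 0.50 (SE 0.13, adjusted p = 0.0133) on the deficient and by 0.54 (SE 0.13, adjusted p = 0.0075) on the adequate diet. With quantile normalization the adjusted p was 0.0742 and 0.0501, and with median centring 0.052 and 0.0372, on the deficient and adequate diets. Htr2c itself did not enter the test. The other 7 tested Snora genes (Snora21, Snora30, Snora31, Snora41, Snora47, Snora62 and Snora78) passed on neither diet, with fold changes from -0.82 to 0.42 on the deficient and from -0.37 to 0.60 on the adequate diet.

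**Figure D3:**
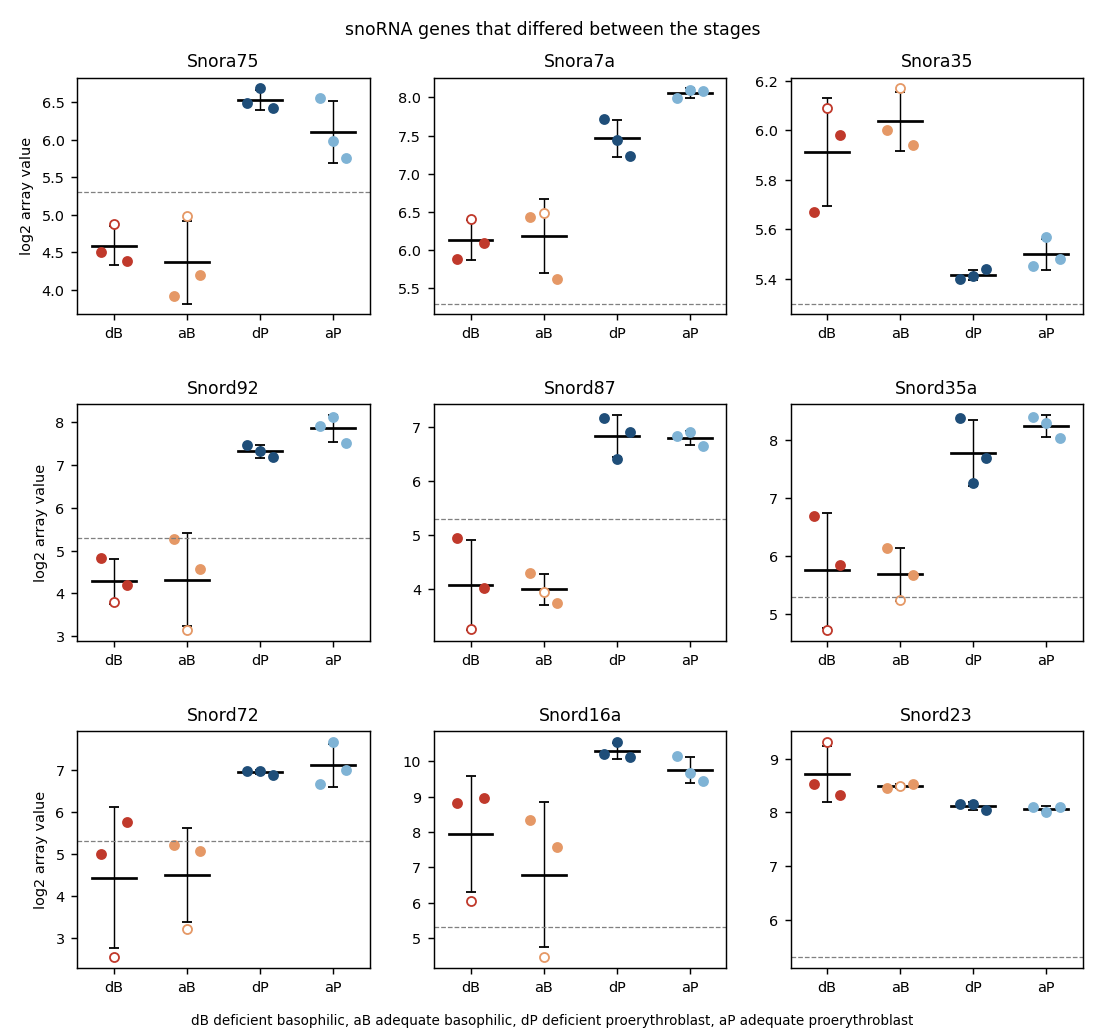
Log2 values of 9 snoRNA genes on the 12 arrays, by group; points are arrays (open points are replicate 2 of the basophilic groups), bars the group mean with its SD (n = 3), and the dashed line the median of all values (5.30). Snora75, Snora7a, Snord92, Snord87, Snord35a, Snord72 and Snord16a are lower in every basophilic array, and Snora35 and Snord23 are higher in every basophilic array.

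Among the C/D genes, Snord92 had the largest decrease on both diets. It read 4.83, 3.81 and 4.20 in deficient basophilic erythroblasts and 7.47, 7.31 and 7.17 in deficient proerythroblasts. Adequate values were 5.27, 3.14 and 4.56 in basophilic erythroblasts and 7.91, 8.12 and 7.51 in proerythroblasts. The stages were more than 2 log2 units apart at their nearest arrays. It fell by 3.04 (SE 0.43, adjusted p = 0.000772) on the deficient and by 3.52 (SE 0.43, adjusted p = 8.05e-05) on the adequate diet. On 2 basophilic arrays Snord92 read below the background median, so the size of this change is limited by background.

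Snord87, in the span of the noncoding host Snhg6, read 4.94, 3.26 and 4.01 in deficient basophilic erythroblasts and 7.18, 6.41 and 6.92 in deficient proerythroblasts. On the adequate diet it read 4.30, 3.94 and 3.73 in basophilic erythroblasts and 6.84, 6.92 and 6.66 in proerythroblasts. No arrays overlapped, and it fell by 2.77 (SE 0.35, adjusted p = 0.000383) on the deficient and by 2.82 (SE 0.35, adjusted p = 7.97e-05) on the adequate diet. Snord35a, 1 of 4 snoRNAs listed as hosted by Rpl13a and the only one with a feature of its own here, is known in mouse and hamster cells for a part in the response to lipid overload. It read 6.68, 4.72 and 5.85 in deficient basophilic erythroblasts and 8.37, 7.26 and 7.68 in deficient proerythroblasts, and fell by 2.02 (SE 0.43, adjusted p = 0.00605). On the adequate diet it read 6.14, 5.24 and 5.67 in basophilic erythroblasts and 8.39, 8.28 and 8.02 in proerythroblasts, and fell by 2.55 (SE 0.43, adjusted p = 0.000755). Snora75, Snora7a, Snord92, Snord87 and Snord35a kept these calls on both diets in every alternative and with any 1 array left out. Of these, Snora75, Snord87 and Snord92 are among the members that passed the filter through proerythroblast arrays alone, so their direction was fixed in part by the filter.

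Snord72 (in Rpl37), Snord16a (in Rpl4) and Snord61 (in Rbmx, which encodes an RNA-binding protein) also fell by over 2 log2 units on both diets, but much of the size came from replicate 2 of the basophilic groups. Snord72 read 4.99, 2.53 and 5.77 in deficient basophilic erythroblasts and 6.98, 6.99 and 6.90 in deficient proerythroblasts. On the other diet the values were 5.21, 3.21 and 5.07 in adequate basophilic erythroblasts against 6.68, 7.68 and 7.0 in adequate proerythroblasts. Its fold change was -2.53 (SE 0.71, adjusted p = 0.0164) on the deficient and -2.62 (SE 0.71, adjusted p = 0.0128) on the adequate diet, and -1.58 and -1.98 without replicate 2 of both basophilic groups (adjusted p = 0.00221 and 0.000385). Snord16a read 8.83, 6.04 and 8.95 in deficient basophilic erythroblasts and 10.21, 10.55 and 10.13 in deficient proerythroblasts. On the other diet the values were 8.33, 4.45 and 7.57 in adequate basophilic erythroblasts against 10.16, 9.66 and 9.44 in adequate proerythroblasts. In all of these the second basophilic array was the lowest by a wide margin and the groups were apart without it. Snord16a fell by 2.36 (SE 0.91, adjusted p = 0.0445) and by 2.97 (SE 0.91, adjusted p = 0.0205), and had -1.41 and -1.80 without replicate 2 (adjusted p = 0.00226 and 0.000353). Snord61 fell by 2.56 (SE 0.99, adjusted p = 0.045) and by 3.05 (SE 0.99, adjusted p = 0.0253), and had -1.31 (adjusted p = 0.0735) on the deficient and -2.23 (adjusted p = 0.00723) on the adequate diet without replicate 2. On the deficient diet the calls of Snord16a and Snord61 each ended in 8 of 12 fits that left out 1 array.

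The other Snord genes lower on both diets were Snord11, Snord14a, Snord14e, Snord35b, Snord43, Snord49a, Snord58b, Snord73a and Snord82. Snord73a, within Rps3a1, had -1.31 (adjusted p = 0.00685) and -1.98 (adjusted p = 0.000248) on the deficient and adequate diets, and Snord35b had -0.98 (adjusted p = 0.0021) and -1.10 (adjusted p = 0.000382). Snord104, Snord45b and Snord70 were called lower on the deficient diet alone, and Snord69 and Snord90 on the adequate diet alone. The diet by stage interaction of none of these genes passed, so calls on 1 diet do not show that the diets differ. Among the genes called, the arrays of Snord104 and Snord49a overlapped between the stages on the deficient diet, and those of Snord11, Snord14e and Snord58b on the adequate diet.

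Single C/D genes were higher in basophilic erythroblasts. Snord23, within Nop53, read 8.53, 9.31 and 8.32 in deficient basophilic erythroblasts and 8.15, 8.16 and 8.04 in deficient proerythroblasts. It rose by 0.60 (SE 0.20, adjusted p = 0.0285) on the deficient diet, and had 0.42 (adjusted p = 0.0952) on the adequate diet. Snord42a, within Rpl23a, read 10.86, 11.73 and 10.76 in adequate basophilic erythroblasts and 10.16, 10.43 and 10.48 in adequate proerythroblasts. It rose by 0.76 (SE 0.25, adjusted p = 0.0276) on the adequate diet, and had -0.38 (adjusted p = 0.205) on the deficient diet. Both calls ended with median centring (adjusted p = 0.0811 for Snord23 and 0.115 for Snord42a), and replicate 2 was the highest basophilic array of each. The remaining 16 Snord genes were called on neither diet. Among them Snord98 (-1.85 and -2.01 on the deficient and adequate diets) and Snord4a (-1.45 and -1.39) had large estimates that rested on replicate 2: Snord98 read 6.62, 2.44 and 6.18 on the deficient basophilic arrays.

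Low values on replicate 2 were frequent among the C/D genes. On deficient basophilic replicate 2, 14 of 38 Snord genes (36.8%) and 3 of 15 Snora genes read more than 1 log2 unit below the mean of replicates 1 and 3, against 13.2% of all genes tested. On adequate basophilic replicate 2 it was 7 Snord genes (18.4%) and 0 Snora genes, against 2.48% of all genes. Snord16a, Snord4a, Snord58b, Snord61, Snord72 and Snord98 dropped on both. The difference between classes was not tested.

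Most measured host genes fell in basophilic erythroblasts, and snoRNA and host both fell in 11 of 21 pairs on the deficient and 9 of 21 on the adequate diet. All 62 members had a position in the RefSeq table (GRCm38.p6): 53 lay within the span of 1 gene, 6 of 2 genes, and Snord118, Snord13 and Snord89 of none. The table gives no strand, so a host here is a gene whose span holds the snoRNA. In 18 cases that 1 gene encodes a ribosomal protein, but most such hosts had no feature naming them alone, and both genes were tested in 21 pairs with 19 hosts. On the deficient diet 11 of the 21 snoRNAs fell and 1 rose in basophilic erythroblasts, 15 of the 19 hosts fell and none rose, and all 11 snoRNAs that fell were in a host that fell. On the adequate diet 10 snoRNAs fell, 15 hosts fell and 1 rose, and 9 of the 10 were in a host that fell, Snord90 in Rc3h2 (host 0.12, adjusted p = 0.695) being the exception. The medians were -1.01 for the snoRNAs and -0.82 for the hosts on the deficient diet, and -0.86 and -0.83 on the adequate diet. Of all genes 24.9% were lower on the deficient and 25.6% on the adequate diet. With 15 of 19 hosts lower, most snoRNAs lay in a host that fell whether or not they fell. Snora41, Snora62, Snord17, Snord37 and Snord98 did so and were called on neither diet. Host and snoRNA were read on the same arrays, so these counts are a description and no coupling was tested.

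Pairs differed in how far the partners moved. Wdr43 had -2.18 (adjusted p = 0.000446) on the deficient and -2.71 (adjusted p = 2.42e-05) on the adequate diet, and Snord92 -3.04 and -3.52. Ncl fell by 1.85 (adjusted p = 0.00176) and by 2.03 (adjusted p = 0.000358), close to Snora75 (-1.95 and -1.74) and beyond Snord82, its other measured intronic snoRNA (-1.14 and -1.08). On the basophilic arrays Snora75 read 3.92 to 4.98 and Snord82 3.75 to 4.88, near background, which limits the size of both changes. Nop58, which encodes a core protein of the C/D particle and holds Snord11 and Snord70, fell by 2.59 (adjusted p = 0.000896) and by 2.73 (adjusted p = 0.000198). Snord11 had -0.73 and -0.60 and Snord70 had -1.18 and 0.07 on the deficient and adequate diets. Rpl4 fell by 0.78 (adjusted p = 0.0086) and by 0.83 (adjusted p = 0.00396), less than Snord16a.

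In a few pairs the partners parted. Nop53, an assembly factor of the large ribosomal subunit, fell by 0.82 (adjusted p = 0.00444) on the deficient and by 0.75 (adjusted p = 0.00413) on the adequate diet, where Snord23 had 0.60 and 0.42. Eef1b2, a translation elongation factor gene, fell by 1.02 (adjusted p = 0.00196) and by 0.98 (adjusted p = 0.00102), where Snora41 had 0.01 and -0.06. Tpt1 had 0.17 (adjusted p = 0.229) on the deficient diet and rose by 0.33 (adjusted p = 0.0341) on the adequate diet, where Snora31 had -0.82 and -0.37. The difference between partners was not tested.

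**Figure D4:**
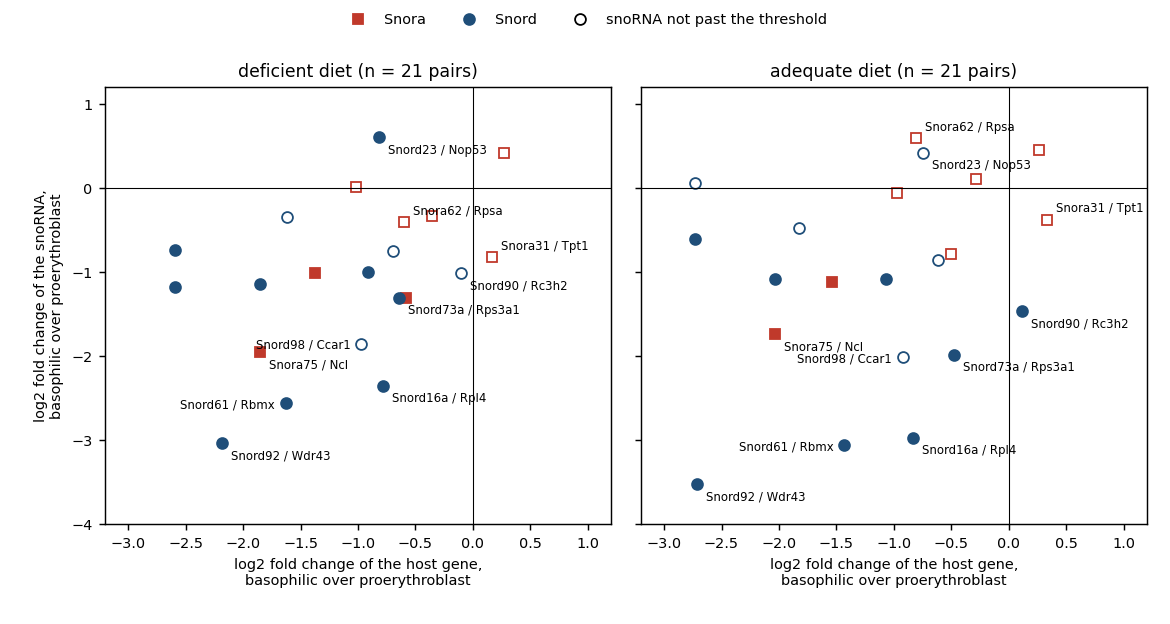
Log2 fold change (basophilic over proerythroblast) of each of 21 snoRNAs against that of the gene whose span holds it, on the deficient (left) and the adequate diet (right); squares are Snora and circles Snord genes, and open symbols mark snoRNAs that did not pass the threshold. Most points are in the lower left, and Snord23 with Nop53 lies above 0 on the snoRNA axis and below 0 on the host axis on both diets.

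Genes of the snoRNA particles and of their making fell in basophilic erythroblasts on both diets. Of the C/D particle proteins 2 of 4 were measured and both fell: Fbl, the methyltransferase fibrillarin, by 1.85 (adjusted p = 0.000559) on the deficient and by 2.38 (adjusted p = 2.57e-05) on the adequate diet, and Nop58 as above. All 4 H/ACA particle genes fell, with Dkc1, the pseudouridine synthase dyskerin, at -1.26 (adjusted p = 0.000333) and -1.11 (adjusted p = 0.000191) and Nhp2 at -1.51 (adjusted p = 0.000234) and -2.17 (adjusted p = 3.73e-06). The list medians were -2.22 and -2.55 for C/D and -1.38 and -1.47 for H/ACA proteins on the deficient and adequate diets. Of 14 tested assembly and trafficking factors, 12 fell on the deficient and 13 on the adequate diet (medians -1.39 and -1.91) and none rose, among them Naf1, an H/ACA assembly factor (-1.75 and -2.84), and Nolc1, the Nopp140 chaperone of snoRNA particles (-2.18 and -2.64). Of 12 end-processing and decay genes 9 fell on each diet, with the exonuclease gene Xrn2 at -2.08 (adjusted p = 0.00209) and -2.16 (adjusted p = 0.00066), and Xrn1 at -0.24 and -0.05 (adjusted p = 0.37 and 0.855).

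Among 28 tested protein-coding genes listed as snoRNA hosts, 22 fell on each diet, 0 rose on the deficient and 1, Tpt1, rose on the adequate diet (medians -0.89 and -0.99). Of 7 tested noncoding hosts 5 fell on each diet, with Snhg5 at -1.66 (adjusted p = 0.00791) and -2.37 (adjusted p = 0.000493) and Snhg6 at -1.33 (adjusted p = 0.000383) and -1.92 (adjusted p = 8.03e-06). Snhg11 rose by 0.50 (adjusted p = 0.0192) and by 0.47 (adjusted p = 0.0239), and Snhg18 rose by 0.75 (adjusted p = 0.0223) on the deficient diet and had 0.52 (adjusted p = 0.0783) on the adequate diet. With quantile normalization and with median centring Snhg11 passed on neither diet, and with median centring Tpt1 had an adjusted p of 0.404 on the adequate diet. These counts stand beside 24.9% and 25.6% of all genes lower on the deficient and adequate diets.

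Of 10 listed snoRNAs known for pre-rRNA cleavage, 6 were tested. Between the stages 2 fell on the deficient and 4 on the adequate diet (medians -0.92 and -1.19). Of all genes 24.9% and 25.6% were lower, so the count on the deficient diet was near that share. The 4 on the adequate diet include the near-identical Snora73a and Snora73b. Snord14a, a U14 copy within Rps13, fell by 1.30 on both diets (SE 0.33, adjusted p = 0.0119 and 0.00944), and Snord14e, a U14 copy within Hspa8, by 1.00 and 1.08 (adjusted p = 0.0462 and 0.0365). The call of Snord14e ended with quantile normalization on both diets (adjusted p = 0.411 and 0.251). Snord118 (U8) and Snord13 (U13), which have genes of their own and lie in no host, had 0.18 and -0.05 on the deficient diet (adjusted p = 0.476 and 0.896) and 0.51 and 0.70 on the adequate diet (adjusted p = 0.0631 and 0.0752). Snord118 has 2 features that disagree in level, at 4.81 to 5.87 and at 2.16 to 2.77, and the brighter one was used. None of the 6 passed for the diet, where their medians, deficient over adequate, were -0.61 in proerythroblasts and -0.70 in basophilic erythroblasts.

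The second question was what the deficient diet did to these genes at each stage. In proerythroblasts no Snora and no Snord gene passed with limma on all arrays, where 4.02% of all genes did. At an unadjusted p under 0.05 there were 3 Snora and 5 Snord genes, beside 14% of all genes. The median change, deficient over adequate, was -0.06 for Snora, -0.09 for Snord and 0.02 for all genes. Deficient and adequate arrays were fully apart for 2 Snora genes higher and 6 lower, and for 2 Snord genes higher and 6 lower, where 15.5% of all genes were higher and 15.6% lower in this way.

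The smallest p-values were of genes with lower values on the deficient diet. Snora73a read 9.08, 7.43 and 8.29 in deficient and 9.63, 9.56 and 9.16 in adequate proerythroblasts. Snora73b read 9.78, 7.97 and 8.99 in deficient and 10.51, 10.24 and 9.99 in adequate proerythroblasts. Every deficient array was below every adequate one for both, with deficient replicate 2 the lowest. The fold changes were -1.18 (SE 0.35, adjusted p = 0.09) and -1.33 (SE 0.41, adjusted p = 0.108). Snord43, within Rpl3, read 5.62, 5.31 and 5.53 in deficient and 5.94, 6.15 and 6.18 in adequate proerythroblasts, again apart, with -0.60 (SE 0.15, adjusted p = 0.0511). Snord14e read 9.21, 8.49 and 8.70 in deficient and 9.46, 9.80 and 10.21 in adequate proerythroblasts and had -1.02 (SE 0.39, adjusted p = 0.219).

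The labels state no pairing of the replicates between diets. With the replicate number as a block within each stage, a fit added after seeing the data, some of these genes passed. They were Snora73a (adjusted p = 0.0371) and Snora73b (adjusted p = 0.0438), and Snord14e (adjusted p = 0.0202), Snord43 (adjusted p = 0.0365) and Snord49a (-0.69, adjusted p = 0.0464), each lower on the deficient diet, beside 11.1% of all genes. Leaving out replicate 2 of both basophilic groups keeps these estimates as they are and changes the shared error. In that fit 3 Snora genes (2 lower and 1 higher on the deficient diet) and 3 Snord genes (2 lower and 1 higher) passed, beside 16.4% of all genes. Those fits called Snora73a, Snora73b, Snord14e and Snord43 in common. Snora7a (-0.60, adjusted p = 0.22), Snora30 (0.47, adjusted p = 0.448), Snord66 (0.43, adjusted p = 0.237) and Snord35b (-0.41, adjusted p = 0.277) were next by p.

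Of the genes that make snoRNA particles, 4 of 14 assembly factors fell in deficient proerythroblasts and none rose, where 2.76% of all genes fell. The progenitor markers also differed between these groups, with list medians of 6.88 to 7.12 in deficient and 8.91 to 9.25 in adequate proerythroblasts, and their part in the diet comparison was not tested. Rpap3, Ruvbl1 and Ruvbl2, which belong to the R2TP chaperone complex, fell by 1.00 (adjusted p = 0.00581), 0.91 (adjusted p = 0.0283) and 0.89 (adjusted p = 0.0167), and Naf1 by 0.92 (adjusted p = 0.0283). Exosc3, an exosome subunit gene, fell by 0.90 (adjusted p = 0.0119), alone among 12 processing genes. Rpap3 kept its call with any 1 array left out, and Ruvbl1, Ruvbl2, Naf1 and Exosc3 lost theirs in some of those fits. None of the particle proteins and none of the genes on the 2 host lists passed for the diet in proerythroblasts. Mcmdc2, on neither list, whose span like that of Snhg6 holds Snord87, rose by 0.76 (adjusted p = 0.0141), and its call ended in 5 of 12 fits that left out 1 array.

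**Figure D5:**
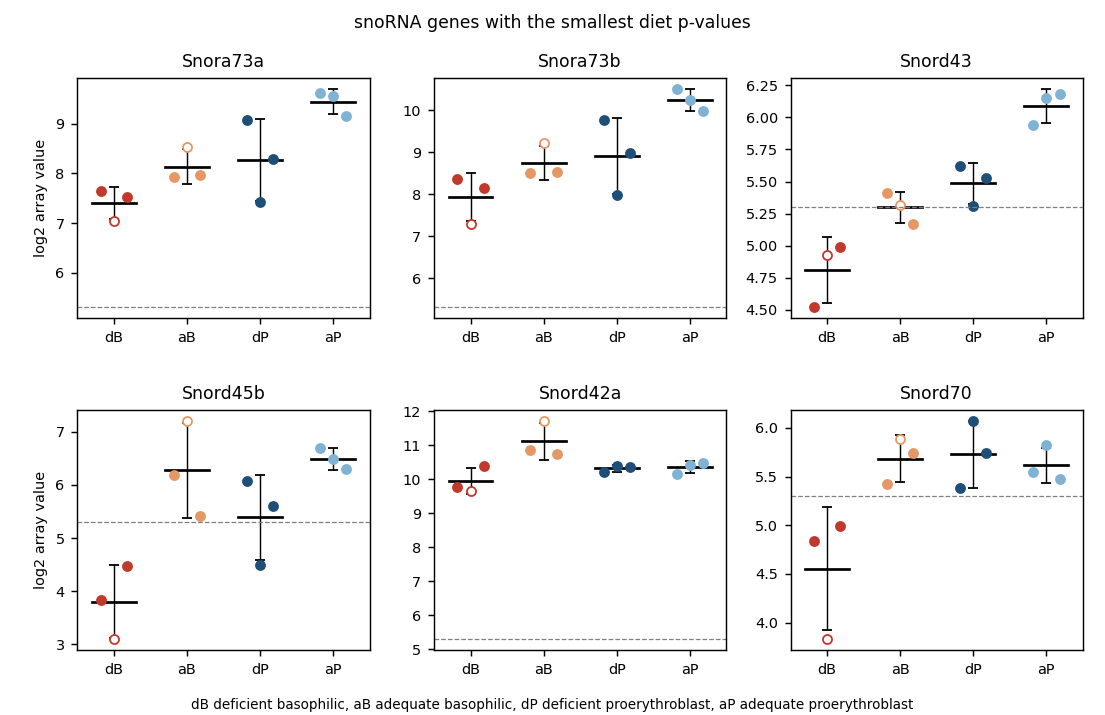
Log2 values of 6 snoRNA genes with small diet p-values on the 12 arrays, by group; points are arrays (open points are replicate 2 of the basophilic groups), bars the group mean with its SD (n = 3), and the dashed line the median of all values (5.30). The deficient proerythroblast arrays are below the adequate ones for Snora73a, Snora73b and Snord43, and the deficient basophilic arrays below the adequate ones for all 6.

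In basophilic erythroblasts again no Snora and no Snord gene passed for the diet with limma, and 0.0199% of all genes did. An unadjusted p under 0.05 was found for 1 Snora and 8 Snord genes, beside 6.48% of all genes. The medians were -0.10 for Snora, -0.02 for Snord and 0.04 for all genes. The deficient arrays lay all below the adequate arrays for 2 Snora and 7 Snord genes and all above for none, where 3.9% of all genes were lower and 4.13% higher in this way.

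Snord45b, within Rabggtb, had the largest estimate. It read 3.83, 3.10 and 4.48 in deficient and 6.19, 7.21 and 5.42 in adequate basophilic erythroblasts, so the deficient arrays were near background and the adequate ones above it. The fold change was -2.47 (SE 0.48, adjusted p = 0.142), and -1.65 (adjusted p = 0.117) without replicate 2 of both groups. Snord42a read 9.79, 9.66 and 10.38 in deficient and 10.86, 11.73 and 10.76 in adequate basophilic erythroblasts, with -1.17 (SE 0.25, adjusted p = 0.181). Snord70 read 4.84, 3.83 and 4.99 in deficient and 5.42, 5.89 and 5.74 in adequate basophilic erythroblasts, with -1.13 (SE 0.28, adjusted p = 0.289). None of the 3 genes overlapped between diets, and replicate 2 held both the lowest deficient and the highest adequate value of each. Snord43 had -0.49 (adjusted p = 0.454), Snora69 -0.81 (adjusted p = 0.711), Snora73b -0.81 (adjusted p = 0.825), Snora73a -0.74 (adjusted p = 0.769) and Snora68 0.50 (adjusted p = 0.954).

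With the block within each stage, Snord45b passed (adjusted p = 0.0468) and so did Snord16a, at 1.16 higher on the deficient diet (adjusted p = 0.041), beside 1.45% of all genes. Snord16a read 8.83, 6.04 and 8.95 in deficient and 8.33, 4.45 and 7.57 in adequate basophilic erythroblasts, so its arrays overlapped. Without the block its SE was 0.91 and it was not called. Without replicate 2 of both basophilic groups only Snord71, in the spans of Ap1g1 and Gm17344, passed: it read 9.23, 6.30 and 9.13 in deficient and 8.0, 7.22 and 7.89 in adequate basophilic erythroblasts, and had 1.24 (adjusted p = 0.00412) without replicate 2, against 0.52 (adjusted p = 0.954) with it. That fit called 2.09% of all genes.

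Whether the diet effect differed between the stages was tested as an interaction, in which the change by diet in proerythroblasts was subtracted from that in the basophilic stage. No Snora and no Snord gene passed with limma, beside 0.303% of all genes, and 0 Snora and 2 Snord genes had an unadjusted p under 0.05, beside 9.15% of all genes. None passed with the block within each stage (2.93% of all genes) or without replicate 2 of both basophilic groups (3.48%). The 2 with the smallest p were Snord42a (-1.14, SE 0.36, adjusted p = 0.264) and Snord70 (-1.24, SE 0.40, adjusted p = 0.277). Snord45b had -1.37 (SE 0.69, adjusted p = 0.626), Snord89 -0.77 (adjusted p = 0.713) and Snora7a 0.55 (SE 0.32, adjusted p = 0.739). Snora21 had -0.22 (adjusted p = 0.87), Snora30 -0.44 (adjusted p = 0.907) and Snora69 -0.53 (adjusted p = 0.975), and Snora30 and Snora69 turned to 0.03 and 0.065 without replicate 2 of both basophilic groups.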

How the data were processed

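Each of 12 Affymetrix whole-transcript arrays was hybridised with RNA from 1 sample (Trizol extraction, 5 ng of total RNA, WT Pico labelling, per the labels' protocols). The deposited table holds log2 values for 72688 features, made by the authors with Affymetrix Expression Console, per the submitters' processing notes; its version, the background correction, summarisation and normalization and the genome build of the features are not given in the sources used here. The values were used as deposited. Features were named from the platform annotation, with symbols updated through RefSeq (1763 features). Of several features of a gene the one with the highest mean was kept. Genes above 5.30, the median of all values, in 3 or more of 12 arrays were tested (20129). Group means were fitted to all arrays with limma 3.58.1 (R 4.3.3, lmFit and eBayes), Benjamini-Hochberg adjustment ran over all genes tested in each of 5 comparisons, and 0.05 was the threshold. Tables and figures were made with python 3.11.15. The fit was tested on simulated data. The number of arrays limits the precision. The comparisons share arrays: the stage comparisons and the diet comparisons reuse the same 4 groups.

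Replicate numbers come from the titles. Deviations from the group means of same-numbered arrays correlated between the diets at 0.457, 0.18 and 0.524 in proerythroblasts. Arrays with different numbers had -0.395 to 0.08 there. In basophilic erythroblasts same-numbered arrays had 0.717, 0.782 and 0.54. Deficient replicate 3 had 0.598 with adequate replicate 1, and deficient replicate 1 had 0.513 with adequate replicate 3. Replicate 2 thus stood apart in that stage, and the correlations do not settle a pairing by number. Between the stages of a diet same-numbered arrays had -0.165 to 0.254. Alternatives were quantile normalization, median centring, no or a stricter filter (the 60th percentile, 5.77), every feature by itself, array weights, trended and robust variance, the arrays of the comparison only, the replicate block and each array left out. Leaving out replicate 2 of both basophilic groups and a block within each stage were added after seeing the data. Named genes were, per class and comparison, up to 6 called genes with the largest change in each direction whose arrays did not overlap, or the 4 with the smallest p where under 3 passed; further members are named for their host or role. The members and gene lists were chosen with earlier results of these data known.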

Additional observations from a re-analysis of the deposited data

How the results depend on the processing

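Over the alternatives that kept all arrays or left out more than 1, counts of genes past the threshold stayed within 1.5 times of the reported count in 90 cases and moved beyond it in 14. For the diet in proerythroblasts, the count of Snora genes past the threshold was 5 with array weights (whose estimation stopped before converging), 2 with the arrays of the comparison only, 3 without replicate 2 of both basophilic groups and 2 with the replicate block within each stage. Of all genes 39.8%, 12%, 16.4% and 11.1% passed in the same order. The count of Snord genes was 14, 3, 3 and 3 in that order, and 1 with median centring, 1 with the stricter filter and 1 with trended and robust variance. For the diet in basophilic erythroblasts it was 1 Snord gene without replicate 2 of both basophilic groups and 2 with the block within each stage. For the stage on the deficient diet 10 Snord genes passed with the arrays of that comparison only, beside 14.5% of all genes. The plain replicate block over all arrays gave 9 Snora and 20 Snord genes for the stage on the deficient diet and 8 and 21 on the adequate diet, and changed no other count. Asking for all 12 arrays above the median left 18 Snord features. The interaction of Snora30 turned to 0.15 with array weights and to 0.028 without replicate 2 of both basophilic groups, and that of Snora69 to 0.065 without it; the cause was not tested.

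With 1 array left out in turn, the counts of Snora and Snord genes ranged over 0 to 2 and 0 to 2 for the diet in proerythroblasts, 0 to 0 and 0 to 1 for the diet in basophilic erythroblasts, 5 to 8 and 11 to 21 for the stage on the deficient diet, 6 to 8 and 9 to 27 for the stage on the adequate diet, and 0 to 0 and 0 to 0 for the interaction. The 2 Snora genes came without deficient proerythroblast replicate 1, and the 27 Snord genes without deficient basophilic replicate 2. Of the named genes, 9 of 13 called for the stage on the deficient diet and 9 of 14 on the adequate diet kept their call in each of these fits, and 6 and 7 kept it in all alternatives run. Of the genes called lower for the stage on either diet, Snora20, Snord45b, Snord58b, Snord61, Snord70, Snord72, Snord73a, Snord82, Snord87, Snord90 and Snord92 read below the background median on 1 to 4 basophilic arrays, so the size of their change is limited by it.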

Other observations

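The 38 tested Snord genes had a median RefSeq length of 69 bases. In the 19 shorter ones the median change between the stages, basophilic over proerythroblast, was -0.89 on the deficient and -0.86 on the adequate diet, with 10 genes called lower on each. In the 19 others it was -0.44 and -0.48, with 8 and 7 called lower. The difference between short and long genes was not tested.

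Across the 12 arrays, the mean of the tested Snord genes was most like Hells, a chromatin remodeller gene (r = 0.994), Abce1, a ribosome recycling factor gene (r = 0.993), and Serbp1, Thoc1 and Naa50 (r = 0.992 each). The mean of the tested Snora genes was most like Mir7067 (r = 0.95) and Mrpl36, a mitochondrial ribosomal protein gene (r = 0.948). These arrays share the split by stage, and many Snord genes had low values on replicate 2 of the basophilic groups, so the correlations describe these libraries. On adequate basophilic replicate 2 the Snora genes were not low: 0 of 15 read more than 1 log2 unit below the other replicates.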
